A study of Mus musculus with 3 samples.

Results

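Mir28a, Mir151 and Mir708 are miRNA hairpins that derive from LINE-2 elements, an old family of retrotransposons. They were followed here as 3 of 1141 named mouse hairpins in small RNA libraries of HL-1 cells, an established mouse cardiac muscle line. An insert of 18 to 25 nt belonged to them if it matched a hairpin exactly, with 1 A-to-G change, or with 1 or 2 untemplated bases at its 3′ end. The study knocked down Srf, the gene of serum response factor, which switches on many muscle genes. All samples were HL-1 cultures transfected with siRNA (9 µl of a 20 µM stock) and harvested after 48 h. By title, siSrf1 and siSrf2 are the libraries of different siRNAs against Srf, with 1 library each, and a further one titled siNon was not analysed here. The siRNA named in the sample records goes against all of the titles. It is Srf si2 under the title siSrf1, siNon under the title siSrf2, and Srf si1 under the title siNon. Samples were grouped by title, and every direction below is one between the siSrf1-labelled and the siSrf2-labelled library. With no replicate there is no test of the conditions, and intervals are exact 95% intervals of counting error only.

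As background, a miRNA hairpin is cut by Drosha and Dicer into a duplex, and its 5p or 3p strand is loaded into an Argonaute protein. The seed, bases 2 to 8 of the loaded strand, chooses most of the target mRNAs. When LINE-2 copies lie next to each other in opposite orientation, the transcript folds back on itself, and several such hairpins became miRNA genes in mammals. The transcript of Mir151 is known as a substrate of ADAR enzymes, which change adenosine to inosine, read as G in sequencing.

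All members lie on the same strand as a protein-coding gene and overlap none of its exons in the GENCODE vM1 annotation of the NCBIM37 build, so they are intronic. Mir28a lies at chr16:24827941-24828026, plus strand, within Lpp, which encodes a LIM-domain protein of focal adhesions. Mir151 lies at chr15:73085245-73085312, minus strand, within Ptk2, which encodes focal adhesion kinase. Mir708 lies at chr7:103397934-103398042, plus strand, within Odz4, which encodes a teneurin, a large transmembrane protein.

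The mature sequences of Mir28a and Mir708 are shown because their shared seed and their likeness can be read from them. They are from RefSeq (GRCm38.p6), written 5′ to 3′ with the seed of the RefSeq entry in capitals. The table matched 2 of the 3 hairpins, and Mir151 is named only.
miR-28a-5p: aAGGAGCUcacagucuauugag
miR-708-5p: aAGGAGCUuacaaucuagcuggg
miR-28a-3p: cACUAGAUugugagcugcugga
miR-708-3p: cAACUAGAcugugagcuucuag
The 5p arms of Mir28a and Mir708 carried the same seed and were identical at 16 of 22 bases counted from the 5′ end. The most frequent 3p insert of Mir708 began 1 nt later than the RefSeq entry printed here, so the seed of its reads is moved by 1 base. Compared from their main 5′ ends, the most frequent 3p inserts of Mir28a and Mir708 were identical at 18 of 22 bases. The most frequent 5p insert of Mir151 shared a run of 16 nt with miR-28a-5p, but the run began at position 4 of miR-151-5p and at position 2 of miR-28a-5p, so their seeds differ. Of 55 distinct exact inserts of the members, 0 were shared with another miRNA and 2 matched more than 1 place in the genome, with 2 reads in the siSrf1-labelled library and 0 in the siSrf2-labelled library.

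The siSrf1- and siSrf2-labelled libraries held 14911499 and 14518157 reads, of which 5233830 and 4554099 were assigned to miRNAs. Mir1a, the most abundant muscle hairpin of the marker list, gave 63.5% of miRNA reads in the siSrf1-labelled library and 52.3% in the siSrf2-labelled library. Mir499, of cardiac muscle, gave 1.40% and 1.39%. The other muscle hairpins had lower shares in the siSrf1-labelled library, with 0.136% and 0.266% for Mir133a, 0.00495% and 0.00806% for Mir208a, and 0.0159% and 0.0190% for Mir208b in the siSrf1- and siSrf2-labelled libraries. The markers of endothelium, blood, neurons, liver and epithelium gave at most 0.0597% each. Srf fragments at mRNA position 1891 were read 19 times in the siSrf1-labelled library and 1230 times in the siSrf2-labelled library. Those at position 2120 were read 17 times in the siSrf1-labelled library and 0 times in the siSrf2-labelled library. How far this bears on which siRNA each library received was not tested.

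The members were of middling abundance, with miR-151 highest and miR-708 close to the limit of detection. Together their reference forms, with the bases of the mouse hairpins, gave 1667 of the miRNA reads of the siSrf1-labelled library and 1915 of those of the siSrf2-labelled library. miR-151-5p was read 762 times in the siSrf1-labelled library and 688 times in the siSrf2-labelled library, which is 146 (135 to 156) and 151.1 (140 to 163) reads per 1000000 miRNA reads (RPM). It ranked 82 among 258 miRNAs that had at least 50 reads summed over both libraries, counted by reference forms. With reads of a changed form, described below, also counted, the 3p arms of Mir151 and Mir28a stood above their 5p arms. miR-151-3p then had 253 and 302 RPM, and miR-28a-3p 108 and 122 RPM, in the siSrf1- and siSrf2-labelled libraries.

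miR-28a-5p was read 359 times in the siSrf1-labelled library and 336 times in the siSrf2-labelled library, or 68.6 (61.7 to 76.1) and 73.8 (66.1 to 82.1) RPM. Its intervals overlap between the libraries and lie below those of miR-151-5p in both. miR-708-5p, with the same seed as miR-28a-5p, was read 22 times in the siSrf1-labelled library and 15 times in the siSrf2-labelled library, or 4.20 (2.63 to 6.36) and 3.29 (1.84 to 5.43) RPM. miR-708-3p was read 7 times in the siSrf1-labelled library and 3 times in the siSrf2-labelled library. Most reads with the shared seed therefore came from Mir28a. Of the other LINE-2 hairpins, Mir28b and Mir325 had 0 reads in either library, which allows up to 0.573 RPM in the siSrf1-labelled library and 0.659 in the siSrf2-labelled library. Mir28c was not analysed here.

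**Figure D1:**
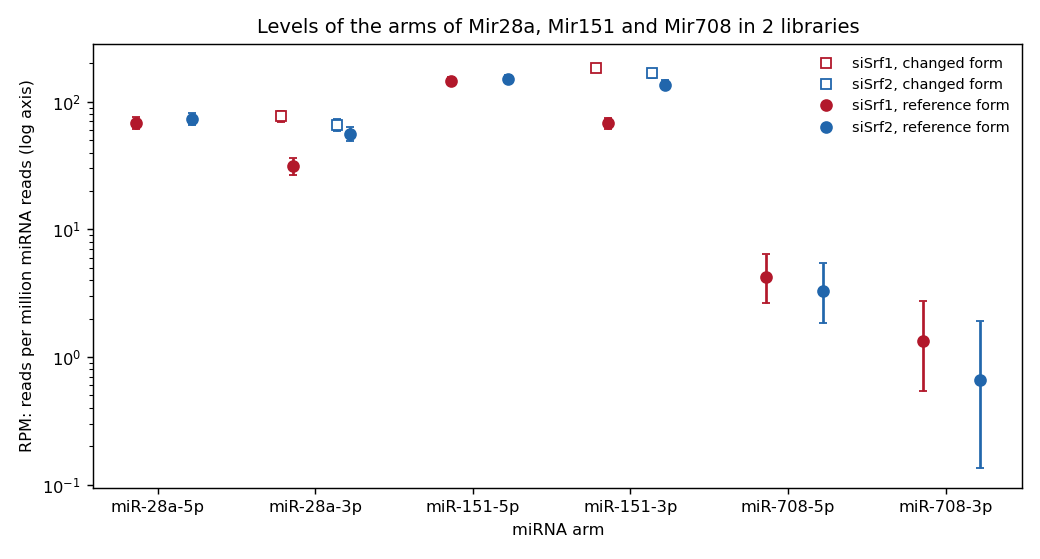
RPM (log axis) of each arm in the libraries labelled siSrf1 (red) and siSrf2 (blue), with exact Poisson 95% intervals. Open squares are the changed form of the 3p arms and filled circles the reference form; the changed form of miR-151-3p is above its reference form in both libraries, and both arms of Mir708 lie below 10 RPM.

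The 3p arms of Mir151 and Mir28a were each read in 2 sequence forms, and the form that differs from the mouse genome was as frequent as the reference form or more so. Positions count from 1 at the main 5′ end, with the genome base first. Shares of a base change are over inserts without tails that hold at least 2 bases after the position. At position 10 of miR-151-3p, 498 of 714 reads in the siSrf1-labelled library carried G10A, a share of 69.7% (66.2 to 73.1). In the siSrf2-labelled library it was 337 of 676 reads, a share of 49.9% (46.0 to 53.7). At position 17 of miR-28a-3p, 256 of 378 reads in the siSrf1-labelled library carried G17C, a share of 67.7% (62.8 to 72.4). In the siSrf2-labelled library it was 190 of 351 reads, a share of 54.1% (48.8 to 59.4). Both shares were higher in the siSrf1-labelled library, with intervals that do not overlap. With tailed inserts also counted, the share of G10A was 73.0% in the siSrf1-labelled library and 55.0% in the siSrf2-labelled library. That of G17C was then 70.8% and 54.2% in these libraries. Both positions lie outside the seed. Changed or tailed inserts with an exact match in NCBIM37 were left out beforehand (1 for the members), so the inserts counted have none by design.

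Such frequent changes were rare among all base changes that could occur, though less so when counted by arm. A change other than A-to-G reached 20% of reads in both libraries at 9 of 9158 base changes that could occur in 174 arms, or 0.0983%. Each lay in a different arm, so 9 of the 174 arms held one. That minimum of 20%, and the choice to count changed reads when arms with at least 200 reads were picked, were set after these values were seen. When arms were picked by unchanged and tailed reads, 3 of 8757 base changes reached it. Of the 7 changes in arms of other miRNAs, named after their values were seen, 3 were also more frequent in the siSrf1-labelled library with intervals that do not overlap. miR-181a-2-3p carried C6T in 63.8% (58.0 to 69.3) of reads in the siSrf1-labelled library and 43.3% (37.3 to 49.4) in the siSrf2-labelled library. miR-330-3p carried G11C in 90.4% (86.7 to 93.3) and 69.0% (63.9 to 73.8) of reads in the siSrf1- and siSrf2-labelled libraries. miR-193b-3p carried A10T in 94.1% (89.6 to 97.0) and 83.5% (76.8 to 89.0) of reads in the siSrf1- and siSrf2-labelled libraries. The other 4 changes had slightly lower shares in the siSrf1-labelled library, with intervals that overlap, and reached at least 92.3% in both libraries. As background, the human counterparts of miR-151-3p and miR-28a-3p are annotated with the changed bases at these positions. No sequence of another species was used here. Whether the same holds for the 7 changes in arms of other miRNAs was not looked at, so it cannot be called particular to the members. Where the changed reads come from was not tested.

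The 5p arms held no change of this size. The highest share of any change at a position of miR-151-5p was 1.83% in the siSrf1-labelled library and 1.26% in the siSrf2-labelled library, for A14C in both. In miR-28a-5p it was 3.70% in the siSrf1-labelled library and 2.00% in the siSrf2-labelled library, for G20T in both. Reads of the 5p arms therefore cannot be divided between the forms seen in the 3p arms.

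**Figure D2:**
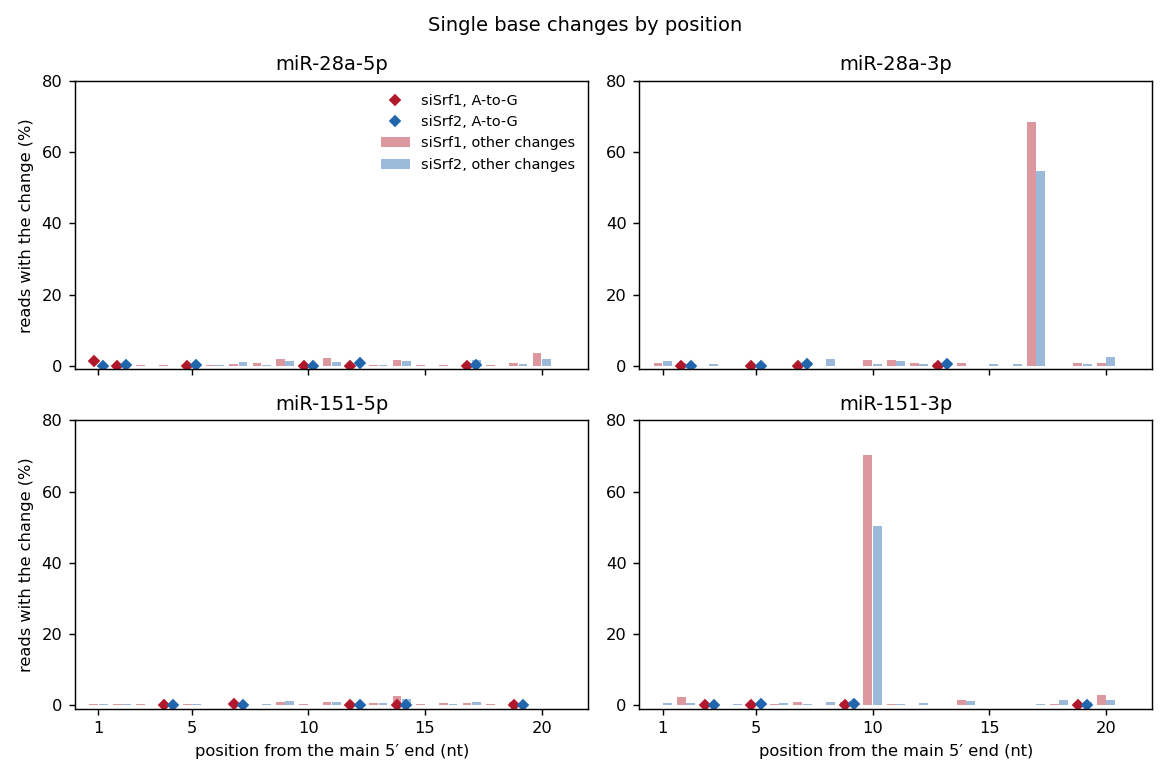
Share of reads with a single base change (%) against position from the main 5′ end in 4 arms; bars sum the changes other than A-to-G, diamonds are A-to-G, red is the siSrf1-labelled library and blue the siSrf2-labelled library. The bars at position 17 of miR-28a-3p and position 10 of miR-151-3p stand far above all others, and the A-to-G diamonds stay at or near 0.

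A-to-G changes were at the level of other read changes. The rule, a share whose lower bound is above 1% in both libraries, was met at 0 of 19 A positions of the 4 arms with at least 200 reads. Over all 792 A positions of 161 arms it was met at 2 positions, or 0.253%. These were A11G of miR-98-5p, with 70.0% of reads in each library, and A19G of let-7e-5p, with 1.31% in the siSrf1-labelled library and 1.62% in the siSrf2-labelled library. Both arms resemble other let-7 members closely, and reads moved between such arms were not tested for.

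The sites of Mir151 known to be edited were read as follows. At position 3 of miR-151-3p, 0 of 214 reference reads in the siSrf1-labelled library and 0 of 336 in the siSrf2-labelled library carried A3G. With both forms counted, it was 2 of 715 reads in the siSrf1-labelled library (0.280%, upper bound 1.01%) and 1 of 674 in the siSrf2-labelled library (0.148%, upper bound 0.824%). The base before the main 5′ end of miR-151-3p is also A, and 47 inserts in the siSrf1-labelled library and 54 in the siSrf2-labelled library began early and covered it, counting inserts of either form without a further change. In either library 0 inserts carried G there. Of exact reference inserts, 205 of 213 in the siSrf1-labelled library and 319 of 336 in the siSrf2-labelled library began at the main 5′ end. Most early inserts were therefore of the changed form, whose source was not tested. Few reference reads covered this base, so the 0 says little about them. As background, ADAR editing of this hairpin is known to hold back its cutting by Dicer, and uncut precursors are longer than the inserts read here.

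In miR-28a-5p, A1G was carried by 4 of 320 reads in the siSrf1-labelled library, a share of 1.25% (0.342 to 3.17), and by 0 of 295 in the siSrf2-labelled library. Summed over its 6 A positions, A-to-G made up 0.209% of bases read in the siSrf1-labelled library and 0.281% in the siSrf2-labelled library, against 0.314% and 0.281% for A-to-C. In miR-151-5p, A-to-G made up 0.0582% in the siSrf1-labelled library and 0.0972% in the siSrf2-labelled library, against 0.612% and 0.356% for A-to-C. A-to-G was thus no more frequent than A-to-C in these arms. A-to-T made up 0.105% and 0% in miR-28a-5p in the siSrf1- and siSrf2-labelled libraries, below A-to-G. In miR-151-5p it made up 0.262% and 0.0972% in these libraries, and A-to-G was not above it. T-to-C, over the T bases read, made up 0.192% and 0.208% in miR-28a-5p in these libraries, below A-to-G. In miR-151-5p T-to-C made up 0.108% and 0.120%, above A-to-G. Of 9 hairpins listed for described editing, 4 had an arm with at least 50 reads, and 0 of the 11 A positions in arms of the list with at least 200 reads, the minimum for this test, met the rule. A6G of miR-411-5p came nearest, with 5 of 131 reads (3.82%, 1.25 to 8.68) in the siSrf1-labelled library and 3 of 86 (3.49%, 0.725 to 9.86) in the siSrf2-labelled library.

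Between the libraries, the 5p arms were read at like levels, and the reference forms of the 3p arms were lower in the siSrf1-labelled library. The size rule asked for a difference of at least 2-fold with the whole interval on 1 side of 0. Of 4 member arms with 50 reads, 1 met it as higher in the siSrf2-labelled library, where 67 of all 258 measured miRNAs did, or 26%. In the other direction 0 of 4 met it, and 0% of all measured miRNAs. The arm was miR-151-3p, read 354 times in the siSrf1-labelled library and 619 times in the siSrf2-labelled library, or 67.6 (60.8 to 75.1) and 136 (125 to 147) RPM. Its log2 ratio of siSrf1 over siSrf2 was -1.01 (-1.20 to -0.82), a difference of 2.01-fold that barely met the rule, and 8 alternatives ended the call.

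miR-28a-3p was read 163 times in the siSrf1-labelled library and 254 times in the siSrf2-labelled library, or 31.1 (26.5 to 36.3) and 55.8 (49.1 to 63.1) RPM, with a log2 ratio of -0.84 (-1.13 to -0.55). The log2 ratio of miR-151-5p was -0.05 (-0.20 to 0.10) and that of miR-28a-5p was -0.11 (-0.32 to 0.11). Their intervals include 0. The median log2 ratio was -0.47 over the 4 member arms and -0.44 over all measured miRNAs. TMM factors, which are less moved by a few very abundant miRNAs, shifted all ratios by 0.50, and under them miR-151-5p stood at 0.44 and miR-28a-5p at 0.39. Relative to the median of all miRNAs, the log2 ratio was 0.38 for miR-151-5p, 0.33 for miR-28a-5p, -0.40 for miR-28a-3p and -0.57 for miR-151-3p.

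The changed forms of the 3p arms moved the other way. The changed form of miR-151-3p was read 968 times in the siSrf1-labelled library and 758 times in the siSrf2-labelled library, with a log2 ratio of 0.15 (0.01 to 0.29). The changed form of miR-28a-3p was read 404 times in the siSrf1-labelled library and 300 times in the siSrf2-labelled library, with a log2 ratio of 0.23 (0.01 to 0.45). The size and direction of the 3p difference thus depended on which form was counted. With both forms added, miR-151-3p had 1322 reads in the siSrf1-labelled library and 1377 in the siSrf2-labelled library, with a log2 ratio of -0.26 (-0.37 to -0.15). With both forms, miR-28a-3p had 567 and 554 reads in the siSrf1- and siSrf2-labelled libraries, with a log2 ratio of -0.17 (-0.34 to 0.00). Relative to the median of all miRNAs these ratios were 0.18 for miR-151-3p and 0.27 for miR-28a-3p, so their sign depends on the scaling. The share of Mir1a and the Srf duplex reads given above also differed between these libraries, and their part in these ratios was not tested.

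**Figure D3:**
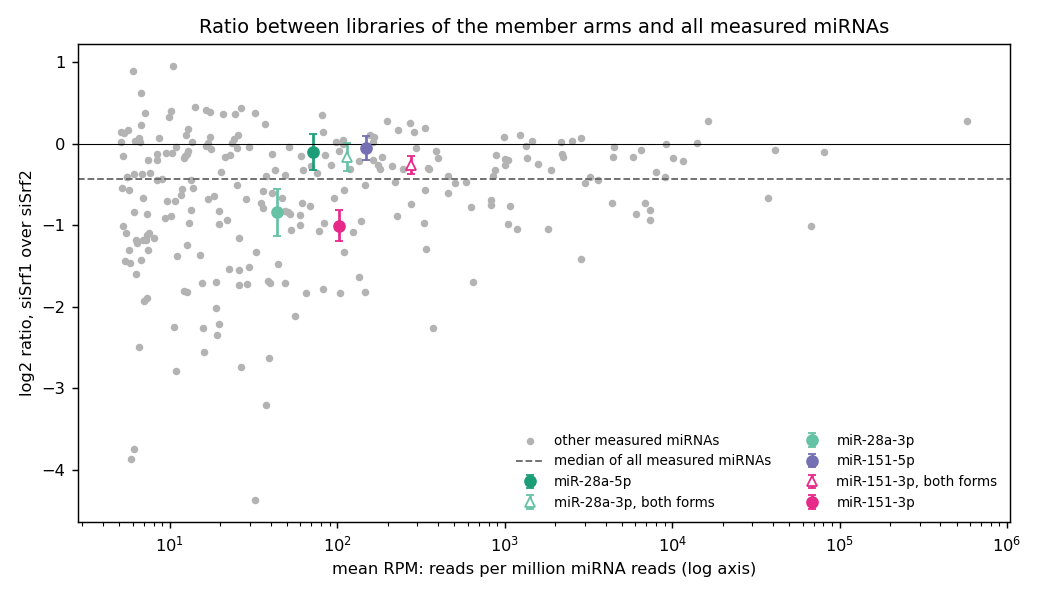
Log2 ratio of siSrf1 over siSrf2 against mean RPM (log axis) for 258 measured miRNAs, with exact binomial 95% intervals for the member arms. Filled circles are member arms with the reference base and open triangles the 3p arms with both forms; the dashed line is the median of all measured miRNAs at -0.44, and the triangles lie above it while the filled 3p circles lie below it.

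The miRNAs nearest in ratio to the most-read reference arms were chosen for that likeness, and those next in abundance were not. The 2 miRNAs with at least 200 reads nearest in log2 ratio to miR-28a-5p were let-7f-5p at -0.11 and miR-192-5p at -0.10. Those nearest to miR-151-5p were miR-532-5p at -0.05 and miR-145a-3p at -0.05. In mean abundance, miR-28a-5p stood between miR-99b-3p, with a log2 ratio of -0.36, and miR-30c-2-3p, at -0.27. miR-151-5p stood between miR-452-5p, with a log2 ratio of 0.10, and miR-25-5p, at -1.82. Likeness here is over 1 library per group.

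The balance of the arms also turned on the forms counted. With the reference form, the 5p arm held 68.3% (65.5 to 71.0) of the reads of Mir151 in the siSrf1-labelled library and 52.6% (49.9 to 55.4) in the siSrf2-labelled library. For Mir28a it held 68.8% (64.6 to 72.7) and 56.9% (52.8 to 61.0) in the siSrf1- and siSrf2-labelled libraries. Counted so, the 5p arm was the larger one in both libraries for Mir28a and in the siSrf1-labelled library for Mir151. For Mir151 the interval in the siSrf2-labelled library reaches below 50%. This count leaves changed reads out of the 3p arm only, since 5p reads cannot be divided between the forms. It therefore does not set like parts of the arms against each other. With both forms, the 5p arm held 36.6% (34.5 to 38.7) of Mir151 reads in the siSrf1-labelled library and 33.3% (31.3 to 35.4) in the siSrf2-labelled library. For Mir28a it then held 38.8% (35.6 to 42.0) and 37.8% (34.6 to 41.0) in the siSrf1- and siSrf2-labelled libraries. The 3p arm was then the larger one in both hairpins and both libraries. Mir708 had 75.9% (56.5 to 89.7) of its 29 reads on the 5p arm in the siSrf1-labelled library and 83.3% (58.6 to 96.4) of its 18 reads in the siSrf2-labelled library.

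**Figure D4:**
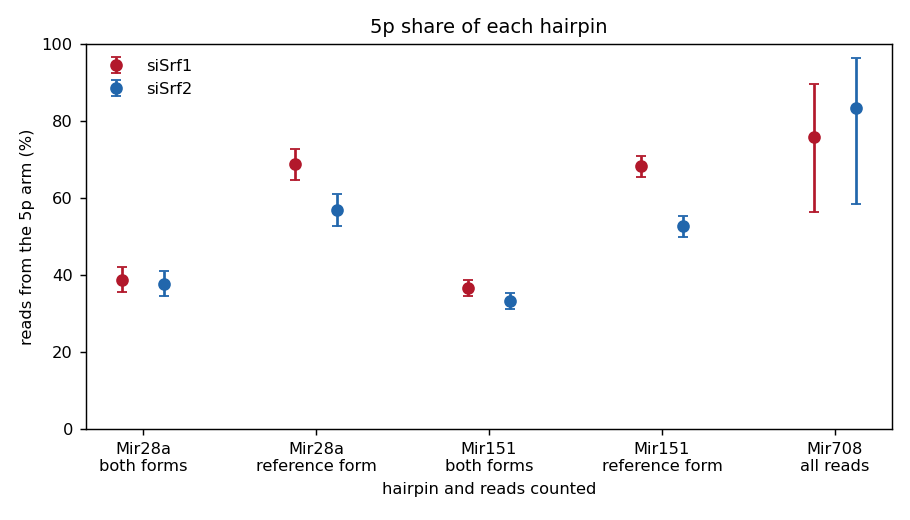
Share of reads from the 5p arm (%) for each hairpin in the libraries labelled siSrf1 (red) and siSrf2 (blue), with exact Clopper-Pearson 95% intervals, counting both forms or the reference form only. The shares of Mir28a and Mir151 lie below 50% with both forms, and their point values lie above 50% with the reference form.

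The 5′ end, which sets the seed, was fixed in most arms. Among exact inserts, the main 5′ end held 97.8% of miR-28a-5p in the siSrf1-labelled library and 97.3% in the siSrf2-labelled library. For miR-151-5p it held 95.5% and 96.0% in the siSrf1- and siSrf2-labelled libraries. The median over 157 other miRNAs was 98.9% in the siSrf1-labelled library and 98.7% in the siSrf2-labelled library. The changed form of miR-151-3p was less fixed, with 89.2% (86.1 to 91.7) in the siSrf1-labelled library and 83.7% (79.3 to 87.5) in the siSrf2-labelled library. Its reference form had 96.2% (92.7 to 98.4) and 94.9% (92.0 to 97.0) in these libraries, with intervals above those of the changed form. In miR-28a-3p the order was the other way. Its changed form had 95.3% (92.0 to 97.6) in the siSrf1-labelled library and 95.3% (91.2 to 97.8) in the siSrf2-labelled library, and its reference form had 89.1% (82.0 to 94.1) and 86.8% (80.5 to 91.6). For miR-28a-3p these intervals overlap.

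The 3′ ends differed between the forms of miR-151-3p as well. Ends and added bases of the changed form were judged against the mouse hairpin with only the changed base replaced. Since the source of these reads was not tested, the bases that truly follow them are not known. Of its changed form, 49.2% (44.7 to 53.7) ended at position 22 in the siSrf1-labelled library and 51.9% (46.4 to 57.4) in the siSrf2-labelled library. Only 1.61% (0.696 to 3.14) and 0.890% (0.184 to 2.58) ended at position 23. Of its reference form, 22.5% (17.1 to 28.7) ended at position 23 in the siSrf1-labelled library and 17.6% (13.6 to 22.1) in the siSrf2-labelled library. The reference form thus reached position 23 more often in both libraries, with intervals that do not overlap. Both forms of miR-28a-3p ended mostly at position 22, with 91.8% and 86.8% of the changed form and 89.1% and 85.5% of the reference form in the siSrf1- and siSrf2-labelled libraries. miR-28a-5p ended at position 22 in 47.3% of exact inserts in the siSrf1-labelled library and 48.5% in the siSrf2-labelled library. miR-151-5p ended at position 21 in 56.0% and 59.8% of exact inserts in the siSrf1- and siSrf2-labelled libraries.

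Untemplated 3′ bases were more frequent on the 3p arms of Mir151 and Mir28a than on their 5p arms. Terminal transferases can add such bases after cutting, and read errors at the insert end are counted with them. In miR-151-5p, 8.79% (6.88 to 11.03) of reads in the siSrf1-labelled library and 8.87% (6.85 to 11.2) in the siSrf2-labelled library ended in 1 or 2 such bases. In miR-28a-5p it was 10.6% (7.60 to 14.2) and 10.7% (7.62 to 14.5) in the siSrf1- and siSrf2-labelled libraries. The median over other miRNAs was 14.9% in the siSrf1-labelled library and 14.5% in the siSrf2-labelled library, above both 5p arms. In the reference form of miR-151-3p it was 39.8% (34.7 to 45.1) and 45.4% (41.4 to 49.4), higher than in 139 and 144 of 157 other miRNAs in the siSrf1- and siSrf2-labelled libraries. In its changed form, judged against the mouse hairpin with the changed base, it was 48.4% (45.2 to 51.6) and 55.5% (51.9 to 59.1) in these libraries. The intervals of the forms overlap in neither library. miR-708-5p had them on 5 of 22 reads, or 22.7% (7.82 to 45.4), in the siSrf1-labelled library and 6 of 15, or 40% (16.3 to 67.7), in the siSrf2-labelled library. These wide intervals include the median of other miRNAs in the siSrf1-labelled library and lie above it in the siSrf2-labelled library. miR-28a-3p had tails on 36.3% and 36.7% of its changed form and 27.0% and 36.6% of its reference form in the siSrf1- and siSrf2-labelled libraries. With sequences seen once left out, miR-28a-5p had tails on 7.87% and 7.72% of reads in these libraries. The reference form of miR-151-3p then had them on 37.1% and 45.2%.

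The added base of miR-151-3p also differed between its forms. Adenine came first in 34.0% (31.0 to 37.1) of changed reads in the siSrf1-labelled library and 38.4% (35.0 to 42.0) in the siSrf2-labelled library. In reference reads it came first in 18.1% (14.2 to 22.5) and 24.2% (20.9 to 27.8). Thymine, uracil in the RNA, came first in 12.1% (10.1 to 14.4) and 14.8% (12.3 to 17.5) of changed reads and 18.6% (14.7 to 23.1) and 17.6% (14.7 to 20.8) of reference reads in the siSrf1- and siSrf2-labelled libraries. The adenine intervals of the forms overlap in neither library, while those of thymine overlap in the siSrf2-labelled library. An added base that equals the next genome base counts as templated, for the changed form too, though the source of its reads was not tested.

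**Figure D5:**
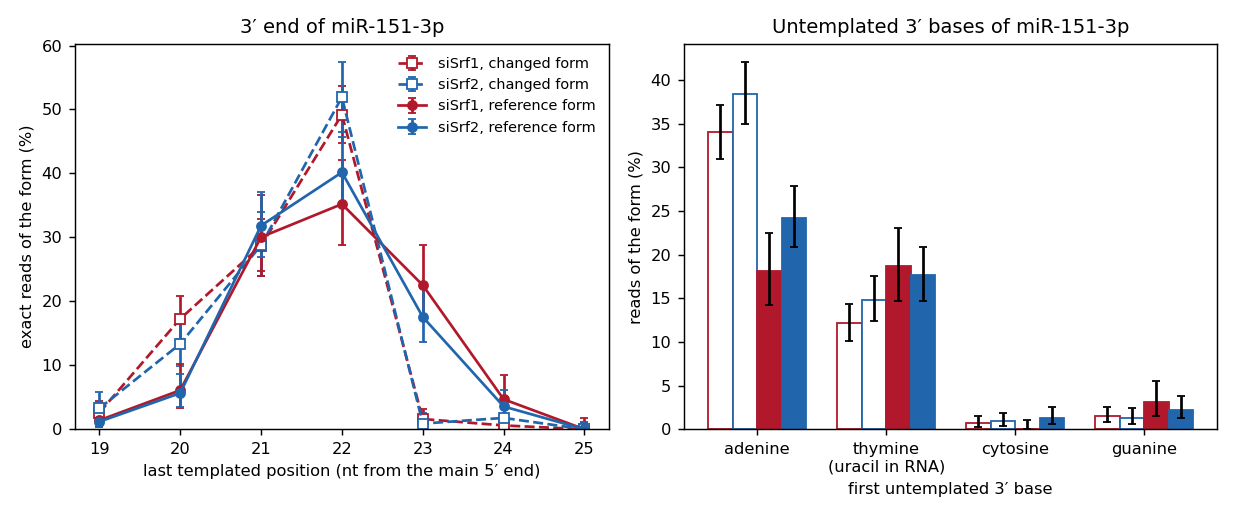
Left, share of exact miR-151-3p reads (%) by last templated position; right, share of reads (%) by first untemplated 3′ base, with exact Clopper-Pearson 95% intervals. Open symbols and bars are the changed form, filled ones the reference form, red the siSrf1-labelled library and blue the siSrf2-labelled library; the changed form is near 0 at position 23 and has more added adenine in both libraries.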

How the data were processed

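Per the labels, small RNA of HL-1 cells was prepared with an Illumina kit and sequenced on the Genome Analyzer. The authors deposited read counts for each distinct sequence of 36 nt, not normalized. An aligner and a build were not given in the sources used here. The members and lists were chosen with earlier results of these data known. Reads were trimmed at the first 8 nt of the 3′ adapter, or at least 4 nt at the read end (Python 3.11.15, numpy 2.4.6, numba 0.67.0). Hairpins came from GENCODE vM1 (NCBIM37) and RefSeq, 1255 loci in all. An arm was defined by its most frequent insert, with a start within 2 nt and an end within 3 nt. Inserts fitting several arms were shared equally. Changes in the last 2 bases were not tested, and a changed or tailed insert that matches the genome elsewhere was left out (1 for the members). Counts were scaled to miRNA reads, 67.5% and 64.9% of inserts of 18 to 25 nt in the libraries labelled siSrf1 and siSrf2, with a pseudocount of 0.5 reads. Intervals are exact Clopper-Pearson, Poisson or conditional binomial (scipy 1.17.1). Since reads carry no molecular identifiers, copies made by PCR are counted too. Named miRNAs are the members, other LINE-2 hairpins, a list with described editing, and for the most-read reference arm of each measured hairpin the 2 nearest in ratio and its neighbours in abundance. Alternatives used edgeR 4.0.16 and DESeq2 1.42.0 only for scaling factors (R 4.3.3). The steps were tested on simulated data.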

Additional observations from a re-analysis of the deposited data

Results flagged for a closer look

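Reads in which no adapter was found were left out of all levels, and some of them began with the first 20 nt of a member arm. These reads lie in data outside the main measurement, and their counts are above the 3 reads that a count of 0 allows. Of all reads, 32.6% in the siSrf1-labelled library and 31.8% in the siSrf2-labelled library had no adapter match. Whether the members hold more of them than other miRNAs was not tested. For miR-151-3p, both forms counted, there were 135 such reads in the siSrf1-labelled library and 127 in the siSrf2-labelled library. For miR-151-5p there were 116 in the siSrf1-labelled library and 79 in the siSrf2-labelled library. For miR-28a-3p, both forms counted, there were 84 and 63 in the siSrf1- and siSrf2-labelled libraries. For miR-28a-5p there were 61 and 56 in the siSrf1- and siSrf2-labelled libraries. What these reads derive from was not tested.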

How the results depend on the processing

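With 1 library per group, differences in levels cannot be set against any spread between cultures, and the 29 and 18 reads of Mir708 in the siSrf1- and siSrf2-labelled libraries limit every value of it. Scaling turned the sign of the 5p ratios, none of which met the size rule. The log2 ratio of miR-28a-5p was 0.39 under TMM scaling, 0.33 under median-of-ratios scaling, 0.00 (0.00215) with the total of all inserts of 15 nt or longer and 0.28 with the miRNA total without miR-1a-3p. That of miR-151-5p became 0.44, 0.38, 0.054 and 0.33 under the same alternatives. The log2 ratio of miR-151-3p no longer met the rule at -0.51, -0.57, -0.90 and -0.62 under them, at -0.998 with a pseudocount of 5 reads, -0.88 with exact inserts only, -0.93 with 12 nt of adapter and 1 mismatch, and -0.26 with the changed base counted. The number of member arms meeting it was then 0 in each of these 8 cases. The number of all miRNAs higher in the siSrf2-labelled library was 37 with TMM, 39 with median-of-ratios and 18 with a minimum of 500 reads. The number higher in the siSrf1-labelled library was 3, 3 and, with a minimum of 10 reads, 1. With exact inserts only, the 5p share was 76.5% and 65.0% for Mir151 in the siSrf1- and siSrf2-labelled libraries, and 65.0% for Mir28a in the siSrf2-labelled library. With the changed base counted it was 36.6% and 33.3% for Mir151 and 38.8% and 37.8% for Mir28a in these libraries. The share of the changed base of miR-151-3p in the siSrf2-labelled library was 55.0% with tailed inserts. Counting the changed base and 12 nt of adapter with 1 mismatch were chosen after seeing the data. The log2 ratio of miR-28a-3p stayed negative and short of the rule, but left its interval at -0.34 under TMM, -0.40 under median-of-ratios, -0.45 without miR-1a-3p and -0.17 (-0.34 to 0.00) with the changed base counted. With a minimum of 10 reads, 100 miRNAs in place of 67 were higher in the siSrf2-labelled library. Including these, the other 73 values of main results and 26 of single positions or arms were not reversed and stayed on their side of the rule where one applies. Apart from what each alternative counts or scales by, the cause was not tested. Tailed inserts with an A-to-G change were not run, since they hold more than 1 difference from the hairpin. No paired analysis was possible because there was only 1 library in either group.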
